A study of Mus musculus with 27 samples.

Results

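The mitosis and G2/M genes were 57 genes, of 19392 listed by symbol, whose products carry a cell from the end of the second growth phase (G2) through mitosis (M) to the separation of the daughter cells. They were listed by name for that role, with earlier results of these data known, and all 57 were found in the expression table. Expression was measured by RNA-Seq in the left kidneys of 27 C57BL/6 mice, in 9 groups of 3 that differed in ischemia time. In the model (uIRIx) the right kidney was removed, and the left renal pedicle was clamped for 0, 16, 18, 20, 22, 24, 26, 28 or 30 min at 37 °C before 24 h of reperfusion. The 0 min mice are labelled sham, and removal of their right kidney is not stated apart from this description. The mice were wild type. The unit is FPKM (fragments per kilobase, scaled to sequencing depth), so that levels of different genes are compared per length. FPKM hold no read counts, and the depth behind each value is unknown. Proximal tubule markers were high in every 0 min kidney (6 genes, summed level 3122 to 3445 FPKM), as the label kidney requires.

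Most tubular cells of an adult kidney are not dividing, and many re-enter the cell cycle after ischemic injury. Before mitosis a wave of genes is switched on together: cyclins A and B activate the kinase Cdk1, the spindle checkpoint holds sister chromatids together until the kinetochores are attached, and the anaphase-promoting complex then degrades cyclin B and releases the chromatids. Many of these genes are held silent in resting cells by the DREAM complex and switched on by the MuvB complex with B-Myb and FoxM1, which act through CHR elements in their promoters, often next to CCAAT boxes bound by NF-Y.

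Promoter windows, the 250 bases before a transcription start in RefSeq on GRCm38.p6, were found for 48 of the 57 genes (53 windows, since some genes have more than 1 start, and such windows can overlap). A start can lie inside the RefSeq extent of its gene, as for Mki67 and Top2a, so such windows hold some bases of the gene. Both strands were searched for CCAAT and for the CHR core TTTGAA, 2 motifs whose matches can share a base at their ends. At least 1 CCAAT stood in 75.5% of these windows and in 33.8% of the windows of all 27025 genes. A TTTGAA stood in 37.7% against 16.0%, and both motifs in 34.0% against 5.55%. The windows of Ccnb2 (cyclin B2), Mki67 (the proliferation antigen Ki-67) and Top2a (DNA topoisomerase II alpha) are shown because they hold both motifs, and that of Birc5 (survivin) because it holds neither although its expression is among the most changed below. Capitals mark CCAAT or TTTGAA on either strand.
Ccnb2, chr9:70421555-70421804, minus strand: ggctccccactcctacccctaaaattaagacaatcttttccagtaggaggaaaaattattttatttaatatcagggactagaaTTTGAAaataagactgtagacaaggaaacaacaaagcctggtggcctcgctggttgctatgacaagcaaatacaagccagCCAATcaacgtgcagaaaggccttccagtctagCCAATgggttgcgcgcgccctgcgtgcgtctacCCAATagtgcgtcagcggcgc
Mki67, chr7:135716380-135716629, minus strand: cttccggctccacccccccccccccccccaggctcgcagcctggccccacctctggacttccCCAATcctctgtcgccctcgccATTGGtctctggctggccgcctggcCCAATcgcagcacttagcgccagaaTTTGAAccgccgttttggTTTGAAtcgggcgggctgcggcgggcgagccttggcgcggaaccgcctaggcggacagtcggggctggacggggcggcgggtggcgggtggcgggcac
Top2a, chr11:99024190-99024439, minus strand: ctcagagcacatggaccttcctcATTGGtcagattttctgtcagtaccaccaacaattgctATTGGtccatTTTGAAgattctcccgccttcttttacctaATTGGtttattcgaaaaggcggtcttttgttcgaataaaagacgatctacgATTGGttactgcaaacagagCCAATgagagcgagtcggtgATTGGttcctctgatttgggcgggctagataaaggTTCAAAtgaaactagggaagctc
Birc5, chr11:117848987-117849236, plus strand: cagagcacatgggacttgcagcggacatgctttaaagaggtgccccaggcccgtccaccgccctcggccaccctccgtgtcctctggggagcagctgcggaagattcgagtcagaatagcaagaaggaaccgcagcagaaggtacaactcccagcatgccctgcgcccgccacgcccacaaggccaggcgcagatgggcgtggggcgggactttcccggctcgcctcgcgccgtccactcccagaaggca
The Ccnb2 window holds 3 CCAAT and 1 TTTGAA, that of Mki67 3 and 2, and that of Top2a 6 and 2. Birc5 has no match to these letters in its window, which says nothing about the factors that bind there.

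The first question was how these genes differed from 0 min after 16 to 26 min of ischemia. Most of the genes were low at 0 min and higher at these times, and between 41 and 47 of the 57 were called higher at each single time. Over the 57 genes the mean FPKM of 16 to 26 min was a median of 7.11 times that of 0 min, from 0.912 times for Pttg1 to 16.9 times for Melk. In limma fits on log2(FPKM + 1) across 18188 genes, where a gene was called at a log2 fold change beyond 1 in size and a Benjamini-Hochberg adjusted p under 0.05, 46 of the 57 were higher in the mean of the 6 times than at 0 min and none was lower, against 1.8% of all genes tested called higher and 1.17% lower. Differences of single genes are given below in log2 units, as limma's log2 fold change ± SE with its adjusted p over all genes tested. In 53 of the 57 all 18 kidneys of 16 to 26 min were above all 3 kidneys of 0 min, where the same held for 12.8% of all genes. In a whole kidney, more dividing cells and more RNA of these genes per cell cannot be told apart.

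**Figure D1:**
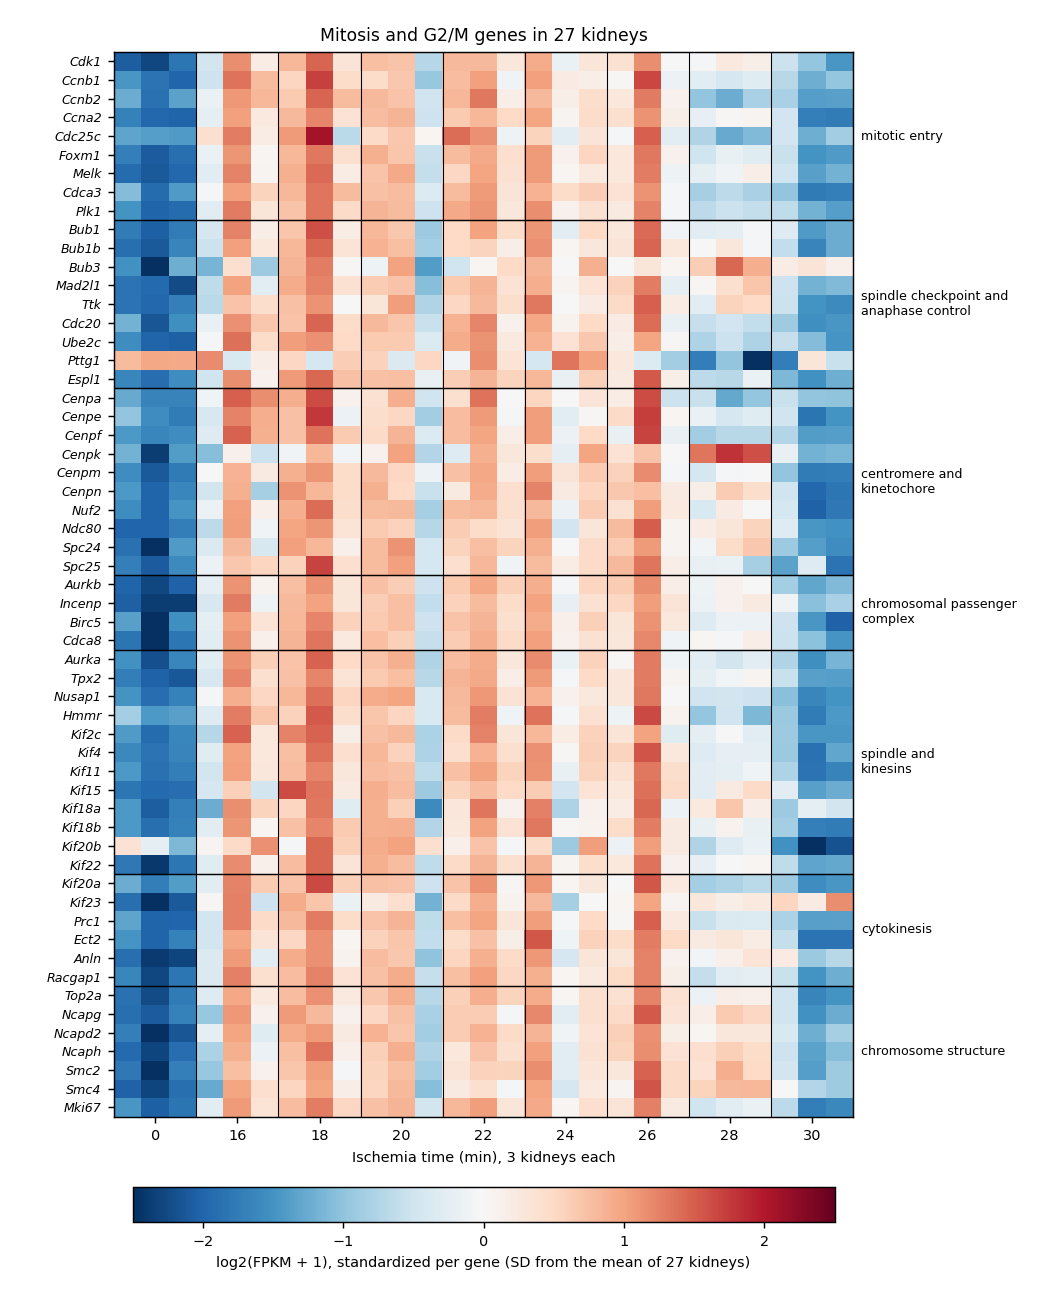
Each row is 1 of the 57 genes, grouped by role, and each column 1 of the 27 kidneys, ordered by ischemia time in min. Color gives log2(FPKM + 1) standardized per gene, in SD from the mean of all kidneys. Nearly all rows are lowest at 0 min, high from 16 to 26 min and lower again at 30 min, and within a time the same kidney is high or low for most rows.

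At the single times, 41 genes were called higher than in the sham kidneys after 16 min of ischemia (1.28% of all genes), 47 after 18 min (1.97%), 42 after 20 min (1.55%), 46 after 22 min (2.09%), 45 after 24 min (1.97%) and 45 after 26 min (2.16%). All these comparisons share the same 3 sham kidneys. The median log2 fold change over the 57 genes was between 1.29 and 1.64, and that over all genes was near 0. The mean was highest at 18 min for 45 of the 57 genes, and 18 min replicate 2 was the highest of its 3 kidneys for 51. The genes moved together within a time, so these 45 are not separate observations of a peak. Between the ends of this range, at 26 min against 16 min, limma called 0 of the 57 genes, 0 had an unadjusted p under 0.05, and the median log2 fold change was 0.16, with 0% of all genes called. When only the 6 kidneys of 16 and 0 min entered the fit, 0 of the 57 passed at 16 min.

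Cdk1, the kinase that drives entry into mitosis, was at 0.45, 0.30 and 0.66 FPKM in the 0 min kidneys. Over the 18 kidneys of 16 to 26 min it ran from 1.93 to 8.06 FPKM, with a median of 4.71 FPKM. No kidney of these times came as low as a 0 min kidney, and the difference was 1.81 ± 0.25 log2 (adjusted p = 1.4e-05). Ccnb1, cyclin B1, its main partner, was at 0.89, 0.54 and 0.43 FPKM at 0 min and ran from 1.46 to 9.09 FPKM, with a median of 4.31 FPKM. The groups did not overlap here either, and the difference was 1.61 ± 0.30 log2 (adjusted p = 0.00028). Plk1, polo-like kinase 1, which activates Cdk1 and matures the centrosomes, was at 1.22, 0.65 and 0.73 FPKM at 0 min and ran from 2.9 to 10.6 FPKM, with a median of 6.51 FPKM. Foxm1, the transcription factor of many G2/M genes, was at 0.87, 0.54 and 0.71 FPKM at 0 min and ran from 2.49 to 8.54 FPKM, with a median of 5.53 FPKM. Both were above 0 min in every kidney, with differences of 1.88 ± 0.27 log2 (adjusted p = 2e-05) and 1.77 ± 0.23 log2 (adjusted p = 8.4e-06). Melk, a mitotic kinase, had the largest ratio, from 0.24, 0.13 and 0.21 FPKM at 0 min to a range of 1.37 to 5.4 FPKM (median 2.99 FPKM). Cdca3, which takes part in degrading the Cdk1 inhibitor Wee1, rose by 2.36 ± 0.30 log2 (adjusted p = 7.4e-06) from 3.13, 1.06 and 2.14 FPKM to 6.68 to 29.1 FPKM (median 17.7 FPKM). Of the 9 mitotic entry genes 8 were called higher. The other, Cdc25c, the phosphatase that activates Cdk1, was at 0.113 ± 0.0153 FPKM at 0 min, and its mean was 8.30 times as high at 16 to 26 min. Its difference was 0.73 ± 0.17 log2 (adjusted p = 0.0017), under the fold required.

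Spindle checkpoint and anaphase genes were called higher in 6 of 9 cases. Bub1b, the checkpoint kinase BubR1, was at 0.43, 0.32 and 0.57 FPKM at 0 min and ran from 1.15 to 4.27 FPKM, with a median of 2.53 FPKM over 16 to 26 min. The ranges did not overlap, and the difference was 1.23 ± 0.19 log2 (adjusted p = 4.1e-05). Ube2c, the ubiquitin-conjugating enzyme of the anaphase-promoting complex, showed the largest log2 fold change of the 57 in this comparison, 2.53 ± 0.29 log2 (adjusted p = 2.2e-06). Its level went from 3.55, 2.24 and 2.18 FPKM at 0 min to 10.3 to 39.2 FPKM (median 22.7 FPKM). Bub1 and Ttk, kinases at the top of the checkpoint, went up 14.3 and 15.9 times in mean FPKM from levels of 0.12 ± 0.0693 and 0.0933 ± 0.0451 FPKM. The 3 that were not called were Bub3, Pttg1 and Espl1. Espl1, separase, the protease that cuts cohesin, had 0.94 ± 0.12 log2 (adjusted p = 1e-05), just under the fold required. Bub3 and Pttg1 stood apart by their levels at 0 min. Bub3, a checkpoint protein that cells also use outside mitosis, was already at 21.4, 18.3 and 22.1 FPKM, with a difference of 0.20 ± 0.06 log2 (adjusted p = 0.0071). Pttg1, securin, the inhibitor of separase, was at 56.5, 58.0 and 57.8 FPKM and had a difference of -0.22 ± 0.09 log2 (adjusted p = 0.07).

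Of the 10 centromere and kinetochore genes 7 were called higher. Among them, Cenpm, a centromere protein, rose by 2.11 ± 0.23 log2 (adjusted p = 1.3e-06). Ndc80 and Nuf2, which bind microtubules, rose by 1.31 ± 0.20 log2 (adjusted p = 5.4e-05) and 1.52 ± 0.25 log2 (adjusted p = 7.3e-05). Cenpm was at 1.15, 0.51 and 0.87 FPKM at 0 min and ran from 4.39 to 11.7 FPKM, with a median of 7.79 FPKM. Spc24 and Spc25, the other two subunits of that complex, had the highest levels at 0 min in the group after per-length scaling, 3.45 ± 0.936 and 13.3 ± 1.25 FPKM, and rose by 1.26 ± 0.17 log2 (adjusted p = 1.5e-05) and 1.09 ± 0.17 log2 (adjusted p = 5.2e-05). Spc24 was among the smallest log2 differences called at 16 min against 0 min, from 3.49, 2.49 and 4.36 FPKM to 7.2, 12.1 and 7.09 FPKM. The ranges of those 2 times did not overlap. Cenpe, the kinetochore motor, Cenpf, a large kinetochore protein, and Cenpk, a part of the constitutive centromere network, were not called, with 0.60 ± 0.15 log2 (adjusted p = 0.0035), 0.87 ± 0.15 log2 (adjusted p = 0.00016) and 0.73 ± 0.16 log2 (adjusted p = 0.0016).

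All 4 genes of the chromosomal passenger complex, which corrects faulty attachments and later directs cytokinesis, rose. Aurkb, its kinase Aurora B, was at 0.62, 0.38 and 0.60 FPKM at 0 min and ran from 2.96 to 9.82 FPKM, with a median of 6.86 FPKM at 16 to 26 min, a difference of 2.18 ± 0.22 log2 (adjusted p = 6.9e-07). Birc5, the survivin subunit shown above without either motif, was at 3.19, 0.79 and 2.7 FPKM at 0 min and ran from 7.0 to 28.5 FPKM, with a median of 17.9 FPKM, a difference of 2.43 ± 0.34 log2 (adjusted p = 1.6e-05). Neither gene had a kidney of 16 to 26 min within its 0 min range. Incenp and Cdca8, the scaffold and borealin, rose by 1.50 ± 0.18 log2 (adjusted p = 3.3e-06) and 1.76 ± 0.23 log2 (adjusted p = 8.1e-06).

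Spindle genes and kinesins were called higher in 9 of 12 cases. Tpx2, the activator of Aurora A, and Kif22, a chromosome arm motor, led them, with 1.92 ± 0.27 log2 (adjusted p = 1.8e-05) and 1.79 ± 0.24 log2 (adjusted p = 1.2e-05). Kif18b, a kinesin of the microtubule ends, was at 0.36, 0.15 and 0.24 FPKM at 0 min and at 1.13, 2.67 and 1.43 FPKM at 16 min, among the smallest log2 differences called there with 1 FPKM added. Its difference ran from 0.82 to 2.16 log2 over the alternative settings. Its 16 min kidneys were all above its 0 min kidneys. Kif15, Kif18a and Kif20b were not called, and their differences were 0.64 ± 0.10 log2 (adjusted p = 5.7e-05), 0.42 ± 0.13 log2 (adjusted p = 0.013) and 0.13 ± 0.13 log2 (adjusted p = 0.49). Kif15, a spindle motor, was at 0.113 ± 0.0153 FPKM at 0 min, a level at which the added 1 FPKM shrinks a fold change. Kif18a, which dampens chromosome movement, was at 0.387 ± 0.0751 FPKM at 0 min. Kif20b, a motor of late mitosis, was at 1.96 ± 0.517 FPKM at 0 min and overlapped the later times.

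All 6 cytokinesis genes rose. Kif20a, the motor that brings Plk1 to the central spindle, was at 0.95, 0.47 and 0.78 FPKM at 0 min and ran from 1.93 to 9.17 FPKM, with a median of 4.78 FPKM, a difference of 1.56 ± 0.28 log2 (adjusted p = 0.00018). Kif23, the motor of the centralspindlin complex, was at 1.67, 0.94 and 1.47 FPKM at 0 min and at 4.12, 6.8 and 3.24 FPKM at 16 min. Anln, anillin, which organizes the contractile ring, was at 0.68, 0.31 and 0.37 FPKM at 0 min and ran from 1.56 to 6.52 FPKM, with a median of 4.3 FPKM. The 0 min kidneys of these 3 genes were below every kidney of 16 to 26 min, with differences for Kif23 and Anln of 1.08 ± 0.18 log2 (adjusted p = 8.2e-05) and 1.72 ± 0.25 log2 (adjusted p = 2.4e-05). Of the 7 chromosome structure genes 6 were called higher. Top2a, which untangles sister chromatids, was at 1.14, 0.67 and 1.3 FPKM at 0 min and ran from 3.67 to 15.8 FPKM, with a median of 9.84 FPKM, a difference of 2.24 ± 0.28 log2 (adjusted p = 6.7e-06). Mki67 was at 1.08, 0.39 and 0.62 FPKM at 0 min and ran from 3.08 to 12.2 FPKM, with a median of 7.49 FPKM, a difference of 2.18 ± 0.29 log2 (adjusted p = 1e-05). Neither had a kidney of 16 to 26 min in the range of 0 min. Smc4, the condensin core subunit shared by both condensins, was not called (5.57 ± 0.359 FPKM at 0 min, 0.79 ± 0.15 log2 (adjusted p = 0.00037)).

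**Figure D2:**
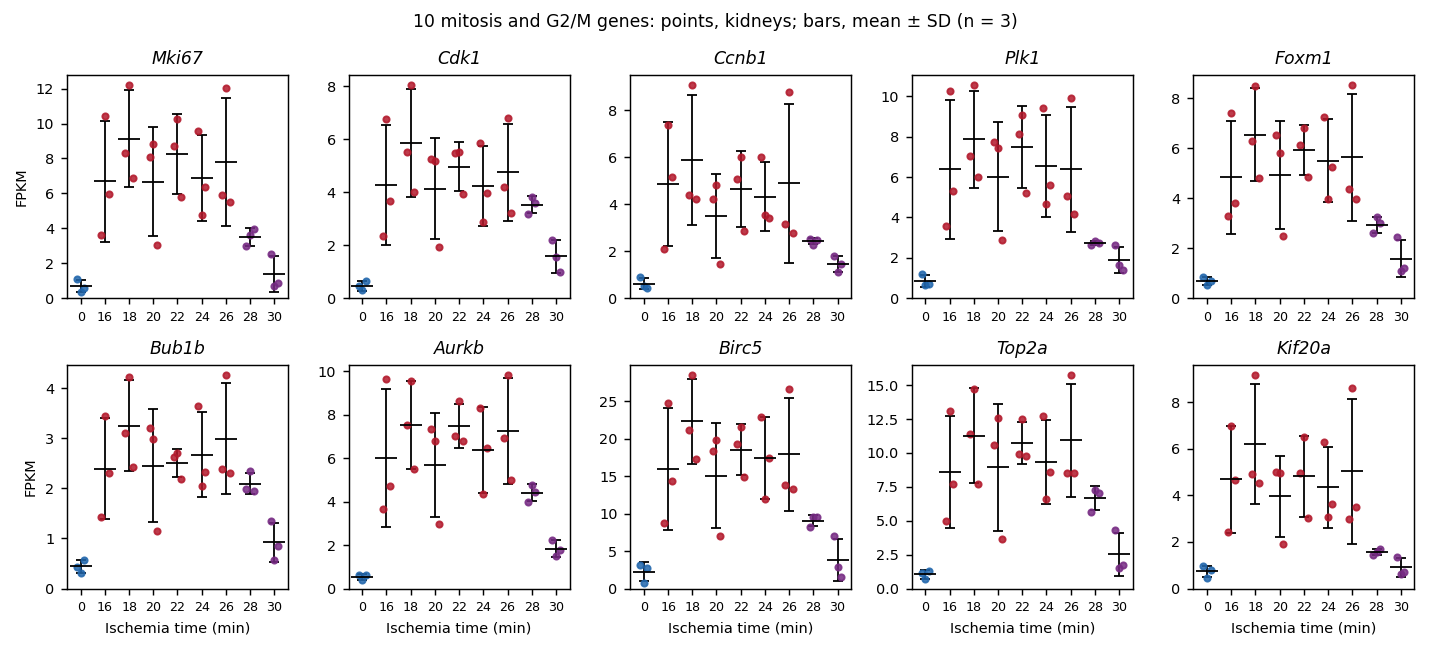
FPKM of 10 genes in every kidney (points) against ischemia time in min, with times evenly spaced on the axis, and the mean ± SD of the 3 kidneys of each time (bars). The 0 min kidneys lie below all kidneys of 16 to 26 min in each panel, and at 30 min the means fall toward the 0 min level.

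The kidneys of 1 ischemia time differed widely, and did so for most genes together. The level summed over 55 genes, leaving out Pttg1 and Bub3 after their values were seen because they were high already at 0 min, ran from 172 to 536 FPKM over the 18 kidneys of 16 to 26 min, and from 55.1 to 85.1 FPKM at 0 min. At 16 min replicate 2 was the highest of its 3 kidneys for 55 of the 57 genes and replicate 1 the lowest for 50. At 20 min replicate 3 was the lowest for 56, and at 26 min replicate 2 the highest for 56. Deviations of 2 genes from the means of their times, over 27 kidneys, had a median Pearson correlation of 0.876 over 1596 pairs, from -0.640 to 0.982. These pairs share kidneys, libraries and scaling and are given as a description only. Without 16 min replicate 2 the count called at 16 min was 28, and without 20 min replicate 1 that at 20 min was 30.

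At 28 min, 32 of the 57 were called higher than at 0 min, against 4.27% of all genes, with a median log2 fold change of 1.04. The mean FPKM at 28 min was a median of 65.1% of the mean over 16 to 26 min. By role this median was 51.6% for mitotic entry, 60.4% for spindle genes and kinesins, 66.9% for cytokinesis, 67.6% for centromere and kinetochore, 69.5% for the passenger complex, 72.7% for the checkpoint and anaphase genes and 97.4% for chromosome structure. The spread within a role was as wide as that between roles, from 21.7% for Ccnb2 to 180% for Cenpk over all 57. Against the mean of 16 to 26 min, 5 were called lower at 28 min (1.64% of all genes) and none higher (0.759%). The count was 11 with 0.1 FPKM added in place of 1 FPKM, where the share of all genes called is not given here. Pttg1 had its lowest mean at 28 min, 38.4, 43.1 and 32.7 FPKM, below all its kidneys of 0 min and of 16 to 26 min, with -0.68 ± 0.12 log2 (adjusted p = 0.00011) against 0 min and -0.46 ± 0.09 log2 (adjusted p = 0.00056) against 16 to 26 min, under the fold required. Kif20b, at 1.87 ± 0.211 FPKM, was near its 0 min mean.

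Those 5 were Ccnb2, Cdca3, Ube2c, Cdc20 and Kif20a. Ccnb2, cyclin B2, with the 3 CCAAT of its window shown above, was at 1.35, 0.53 and 1.21 FPKM at 0 min, ran from 2.99 to 14.8 FPKM, with a median of 8.59 FPKM at 16 to 26 min, and was at 1.81, 1.36 and 2.21 FPKM at 28 min. All 28 min kidneys were below every kidney of 16 to 26 min, by -1.61 ± 0.30 log2 (adjusted p = 0.00029), and against 0 min the difference was 0.38 ± 0.40 log2 (adjusted p = 0.47). Cdca3 was at 4.13, 4.85 and 4.2 FPKM at 28 min, again below all 18 kidneys, with -1.65 ± 0.30 log2 (adjusted p = 0.00022). Ube2c was at 7.11, 8.7 and 7.15 FPKM and differed by -1.42 ± 0.29 log2 (adjusted p = 0.00059). Cdc20, the activator of the anaphase-promoting complex, was at 4.18, 4.57 and 4.1 FPKM at 28 min, which overlapped the lowest kidney of 16 to 26 min (4.31 FPKM), and differed by -1.11 ± 0.32 log2 (adjusted p = 0.01). Kif20a was at 1.43, 1.55 and 1.69 FPKM and differed by -1.07 ± 0.28 log2 (adjusted p = 0.0044).

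The other genes measured in every kidney did not pass this test at 28 min. Cdk1 was at 3.18, 3.83 and 3.61 FPKM, inside its range of 16 to 26 min, with -0.27 ± 0.25 log2 (adjusted p = 0.44). Ccnb1 was at 2.52, 2.28 and 2.47 FPKM, with -0.62 ± 0.30 log2 (adjusted p = 0.12). Plk1, at 2.62, 2.86 and 2.74 FPKM, lay below every kidney of 16 to 26 min (-0.97 ± 0.27 log2 (adjusted p = 0.0064)), just under the fold required. Foxm1, Aurkb and Birc5 were at 2.94 ± 0.318, 4.4 ± 0.382 and 9.08 ± 0.775 FPKM, with -0.68 ± 0.23 log2 (adjusted p = 0.025), -0.46 ± 0.22 log2 (adjusted p = 0.11) and -0.86 ± 0.34 log2 (adjusted p = 0.05). Top2a was at 5.68, 7.3 and 7.01 FPKM and Mki67 at 2.98, 3.61 and 3.95 FPKM, with -0.47 ± 0.28 log2 (adjusted p = 0.22) and -0.86 ± 0.29 log2 (adjusted p = 0.024). Bub1b was at 1.99, 2.34 and 1.95 FPKM, inside its earlier range (-0.19 ± 0.19 log2 (adjusted p = 0.48)). At the other end Cenpk was at 4.61, 5.56 and 5.14 FPKM at 28 min, above all kidneys of 16 to 26 min, which reached 4.02 FPKM (0.71 ± 0.16 log2 (adjusted p = 0.0018)). The condensin genes Smc2 and Smc4 and Ncaph and Ncapg had 107%, 111%, 99.4% and 97.4% of their level at 16 to 26 min.

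Step by step, 28 min against 26 min called 4 genes lower, Ccnb2, Cdca3, Ube2c and Kif20a (1.06% of all genes). That count rests on single kidneys: it was 0 without 26 min replicate 2, in which 56 of the 57 genes were the highest of the group, and 2 without any 1 of the 28 min kidneys.

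**Figure D3:**
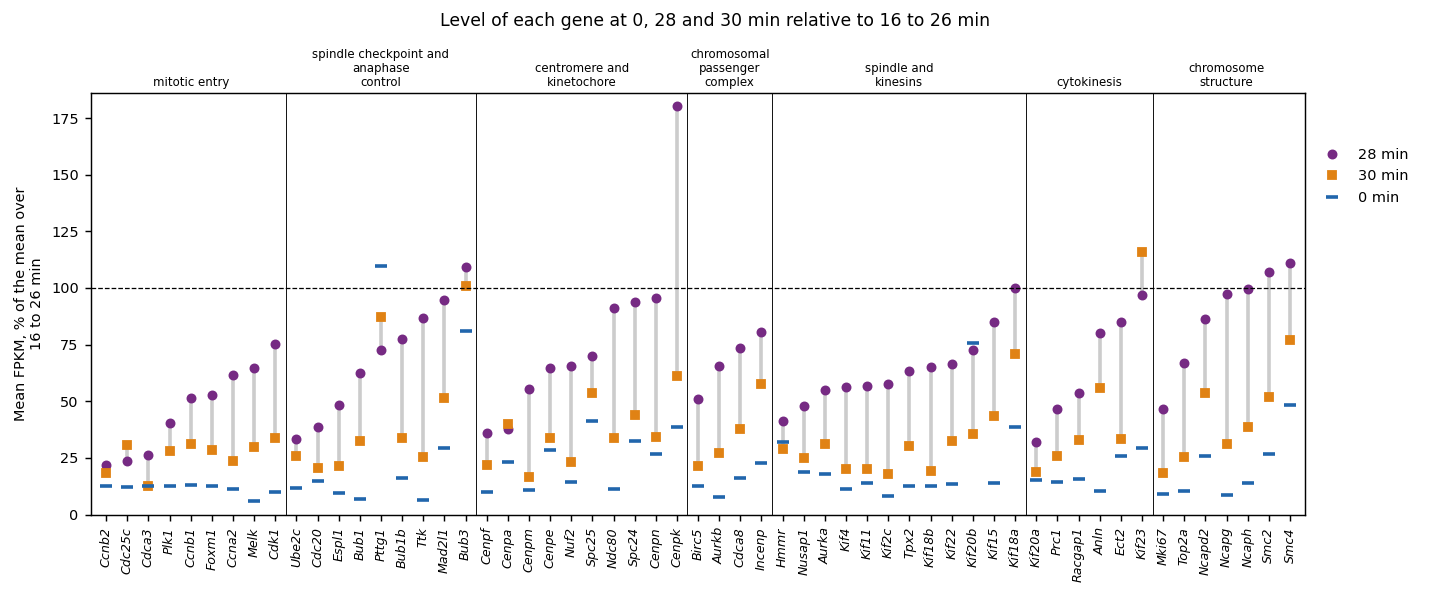
Mean FPKM of each of the 57 genes at 28 min (circles), 30 min (squares) and 0 min (dashes), in % of its mean over 16 to 26 min (broken line at 100%), grouped by role. At 28 min Ccnb2 is lowest at 21.7% and Cenpk highest at 180%, while at 30 min 55 of the points lie under 100%, with Kif23 at 116% and Bub3 at 101% above it.

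At 30 min most of the levels were below those of 16 to 26 min. Only Kif23 and Anln, both of cytokinesis, were called higher than at 0 min, 2 of 57 against 5.14% of all genes, and the median log2 fold change was 0.34. With 0.1 FPKM added before the logarithm in place of 1 FPKM, 12 were called higher and 1 lower. The share of all genes called at that setting is not given here, so these counts cannot be set against it. The mean FPKM was a median of 31.1% of that at 16 to 26 min. Against the mean of 16 to 26 min, 32 genes were lower at 30 min and none higher, against 3.51% of all genes called lower and 2.31% higher, with a median log2 fold change of -1.08. In 24 of the 57 all 30 min kidneys were below all 18 kidneys of 16 to 26 min, where the same held for 12.8% of all genes. Of the 57, 31 still had all 3 kidneys above all 3 sham kidneys, where the same held for 33.3% of all genes.

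By role, the genes called lower at 30 min than at 16 to 26 min were 8 of 9 for mitotic entry, 2 of 9 for the checkpoint and anaphase genes, 4 of 10 for centromere and kinetochore, 3 of 4 for the passenger complex, 9 of 12 for spindle genes and kinesins, 4 of 6 for cytokinesis and 2 of 7 for chromosome structure. Median levels at 30 min, in % of 16 to 26 min, lay closer together. They were 28.6% for mitotic entry, 29.6% for spindle genes and kinesins, 32.3% for checkpoint and anaphase genes and 32.5% for the passenger complex. For cytokinesis the median was 33.1%, for centromere and kinetochore 34.1% and for chromosome structure 38.7%. The largest differences were those of Cdca3, Birc5 and Cenpm. Cdca3 was at 3.48, 1.35 and 1.47 FPKM at 30 min, and its mean, 2.1 ± 1.2 FPKM, lay beside its 0 min mean of 2.11 ± 1.04 FPKM. The difference from 16 to 26 min was -2.49 ± 0.30 log2 (adjusted p = 8.8e-07). Birc5 was at 6.96, 2.92 and 1.53 FPKM at 30 min and differed by -2.06 ± 0.34 log2 (adjusted p = 3.2e-05). Cenpm was at 2.11, 0.88 and 0.91 FPKM and differed by -1.92 ± 0.23 log2 (adjusted p = 6.9e-07). In all 3 genes every 30 min kidney was below the lowest kidney of 16 to 26 min, and replicate 1 was the highest of the 30 min kidneys. With 1 FPKM added, which shrinks the fold of low genes, the smallest log2 differences called were those of Spc24, Melk and Kif18b. In mean FPKM Kif18b was at 19.2% of its level at 16 to 26 min and Birc5 at 21.3%. Spc24 was at 5.58, 4.47 and 4.09 FPKM at 30 min, Melk at 1.5, 0.64 and 0.78 FPKM and Kif18b at 0.71, 0.23 and 0.21 FPKM, with differences of -1.03 ± 0.17 log2 (adjusted p = 4.7e-05), -1.06 ± 0.24 log2 (adjusted p = 0.0008) and -1.07 ± 0.18 log2 (adjusted p = 5.2e-05). Melk overlapped the lowest kidney of 16 to 26 min, and the other two did not.

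Cdk1 was at 2.21, 1.56 and 0.98 FPKM at 30 min, between its 0 min kidneys and most of its 16 to 26 min kidneys (-1.08 ± 0.25 log2 (adjusted p = 0.00097) against 16 to 26 min and 0.73 ± 0.32 log2 (adjusted p = 0.066) against 0 min). Ccnb1 was at 1.82, 1.13 and 1.45 FPKM and Plk1 at 2.65, 1.66 and 1.38 FPKM. Both were lower than at 16 to 26 min, by -1.09 ± 0.30 log2 (adjusted p = 0.0045) and -1.35 ± 0.27 log2 (adjusted p = 0.00024), and their 30 min kidneys were above all sham kidneys, without passing the test (0.52 ± 0.39 log2 (adjusted p = 0.29) and 0.53 ± 0.35 log2 (adjusted p = 0.22)). Foxm1 was at 2.46, 1.11 and 1.2 FPKM and Aurkb at 2.24, 1.49 and 1.78 FPKM. They were lower by -1.30 ± 0.23 log2 (adjusted p = 7.9e-05) and -1.37 ± 0.22 log2 (adjusted p = 3e-05), and no kidney overlapped the earlier times. Top2a was at 4.32, 1.48 and 1.76 FPKM and Mki67 at 2.56, 0.72 and 0.87 FPKM, of which replicate 1 of Top2a was within its earlier range. They fell by 1.64 ± 0.28 log2 (adjusted p = 6.3e-05) and 1.84 ± 0.29 log2 (adjusted p = 2.1e-05). Bub1b, at 1.35, 0.57 and 0.84 FPKM, had -0.91 ± 0.19 log2 (adjusted p = 0.00041), under the fold required. Kif20a, at 1.35, 0.63 and 0.73 FPKM, overlapped its sham kidneys and was lower than at 16 to 26 min by -1.53 ± 0.28 log2 (adjusted p = 9.8e-05).

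Kif23 went against this fall. It was at 5.1, 4.44 and 6.55 FPKM at 30 min, 3.94 times its sham mean, and 1.27 ± 0.23 log2 (adjusted p = 0.0001) against 0 min. Its mean was highest at 30 min of all 9 times, and all kidneys were above its sham kidneys. Anln was at 3.57, 1.64 and 1.97 FPKM at 30 min, 5.28 times its sham mean, with 1.12 ± 0.32 log2 (adjusted p = 0.0061) against 0 min. It was called at 8 of the 8 ischemia times, the only gene of the 57 that was. Without 30 min replicate 1 the count of genes higher than 0 min was 1 in place of 2. Pttg1 and Kif20b had adjusted p under 0.05 in the other direction, with -0.37 ± 0.12 log2 (adjusted p = 0.015) and -0.74 ± 0.17 log2 (adjusted p = 0.0011), both under the fold required. Pttg1 was at 38.4, 52.5 and 46.0 FPKM at 30 min, below its 57.4 FPKM at 0 min.

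Against 28 min, 8 genes were lower at 30 min (0.649% of all genes), Cenpm, Ccna2, Top2a, Cenpk, Cenpn, Ect2, Nuf2 and Ncaph. Ccna2, cyclin A2, which acts from S phase to early mitosis, went from 5.82, 6.95 and 7.17 to 4.71, 1.49 and 1.43 FPKM (-1.19 ± 0.37 log2 (adjusted p = 0.038)). None of its kidneys overlapped. Cenpk went from 4.61, 5.56 and 5.14 to 2.36, 1.4 and 1.44 FPKM (-1.14 ± 0.21 log2 (adjusted p = 0.0021)). The count was 15 without 30 min replicate 1, the highest of its group for 52 of the 57 genes. It was 2 without 30 min replicate 2 and 1 without replicate 3. Without 28 min replicates 1, 2 and 3 in turn it was 5, 3 and 2, and it was 0 when only the kidneys of 28 and 30 min entered the fit.

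**Figure D4:**
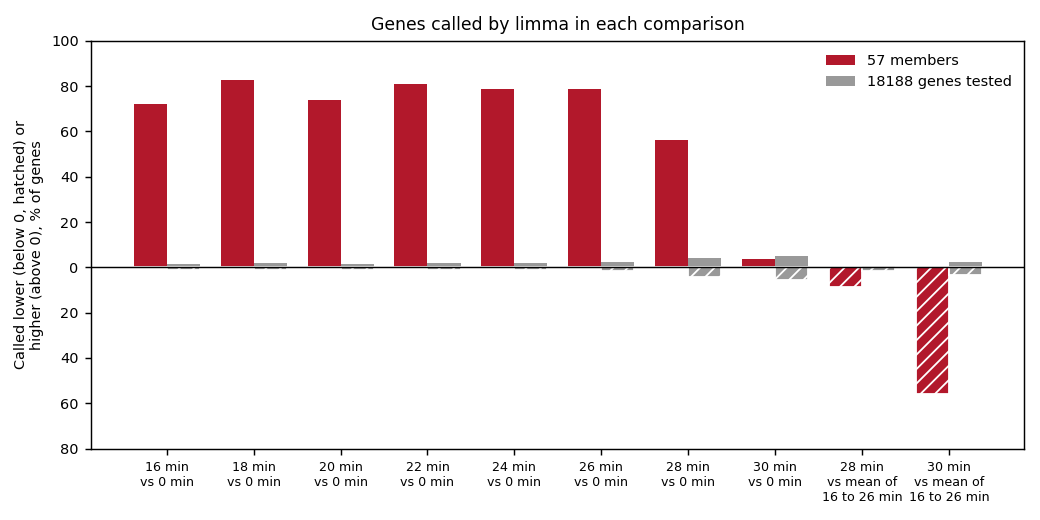
Share of the 57 genes (red, members) and of all 18188 genes tested (grey) called by limma in 10 comparisons, in % of genes, with genes called higher drawn above 0 and genes called lower hatched below 0. The red bars are far above the grey up to 28 min, small and below the grey bar at 30 min against 0 min, and the 32 genes lower at 30 min than at 16 to 26 min form the large bar below 0.

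Across the 8 ischemia times, 1 gene was called higher than at 0 min at 8 times, 26 genes at 7, 15 at 6, 3 at 5, 1 at 3 and 2 at 1. The 9 that were called at none, nor in any other comparison, were Cdc25c, Bub3, Pttg1, Cenpe, Cenpf, Kif15, Kif18a, Kif20b and Smc4. Of these, 5 had mean levels under 1 FPKM at 0 min. In mean FPKM Cdc25c, Cenpf and Kif15 were 8.30, 10.1 and 7.11 times as high at 16 to 26 min as at 0 min, ratios like those of genes that were called.

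Genes for the anaphase-promoting complex itself, which Cdc20 and Ube2c serve, stayed under the fold required. Of 16 genes for its subunits and partners, limma called 0 in either direction in the mean of 16 to 26 min against 0 min. Of all genes 1.8% were called higher and 1.17% lower, so 0 calls do not set so short a list apart. An unadjusted p under 0.05 was found for 9 (8325 of all 18188 genes had one), and the median log2 fold change was 0.11. The largest was Ube2s, the enzyme that extends its ubiquitin chains, with 0.80 ± 0.08 log2 (adjusted p = 5.8e-07). Of 15 genes of the DREAM and MuvB complexes and of NF-Y, 0 were called at 16 to 26 min against 0 min, beside the same shares of all genes. An unadjusted p under 0.05 was found for 10, beside the same 8325 of 18188. Mybl2, B-Myb, had 0.76 ± 0.13 log2 (adjusted p = 0.00018), at levels where the added 1 FPKM shrinks a fold change. Its mean was 0.637 FPKM at 0 min (0.54 to 0.73 FPKM) and 2.07 FPKM at 16 to 26 min (1.23 to 2.91 FPKM), without overlap. E2f4, the main E2F of DREAM, was called higher at 30 min, 1.15 ± 0.08 log2 (adjusted p = 5.5e-10), with 44.2 to 53.5 FPKM against 19.2 to 22.8 FPKM at 0 min. Of 60 further mitotic genes outside the 57, 26 were higher at 16 to 26 min than at 0 min (1.8% of all genes) and none lower (1.17%). Pbk, a mitotic kinase, led them with 2.30 ± 0.32 log2 (adjusted p = 1.8e-05), and at 30 min 8 of the 60 were lower than at 16 to 26 min (3.51% of all genes) and 1 was higher (2.31%).

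Genes of DNA replication and S phase, the phase before G2, had their highest summed level at 28 min. Of 39 such genes 23 were called higher at 16 to 26 min than at 0 min (1.8% of all genes), and 33 at 28 min than at 0 min (4.27%). Their mean FPKM at 28 min was a median of 144% of the level at 16 to 26 min, where the mitosis and G2/M genes had 65.1%. Between 28 min and 16 to 26 min limma called 1 of the 39 higher (0.759% of all genes) and 0 lower (1.64%), with a median log2 fold change of 0.49. That gene, Uhrf1, which maintains DNA methylation at the fork, was at 29.7 to 37.7 FPKM at 28 min, above its range of 5.05 to 24.2 FPKM over 16 to 26 min (1.05 ± 0.33 log2 (adjusted p = 0.015)). In each kidney the summed level of the 55 mitotic genes was divided by that of the 39 replication genes. This ratio was 0.367 ± 0.0626 (SD, n = 3) at 0 min, from 0.487 to 0.973 over the 18 kidneys of 16 to 26 min, 0.295 ± 0.00811 at 28 min and 0.345 ± 0.0260 at 30 min. No kidney of 28 or 30 min reached the lowest of 16 to 26 min. At 30 min the replication genes were also down, with 23 of 39 called lower than at 28 min (0.649% of all genes) and a median of 65.3% of their level at 16 to 26 min.

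**Figure D5:**
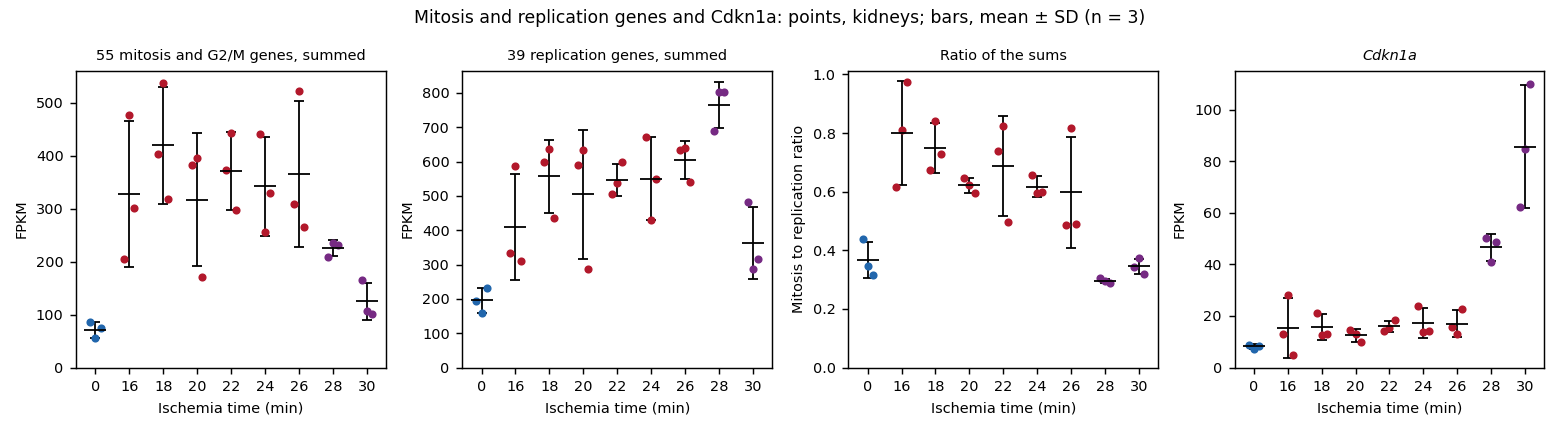
Summed FPKM of 55 mitosis and G2/M genes and of 39 replication genes, the ratio of the 2 sums, and FPKM of Cdkn1a, in every kidney (points) against ischemia time in min, with times evenly spaced on the axis, and mean ± SD of 3 kidneys (bars). The replication sum is highest at 28 min while the mitotic sum is already lower, and the ratio at 28 min, 0.288 to 0.304, lies below all kidneys of 16 to 26 min.

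Some genes that hold back Cdk1 were at their highest at the longest times. Of 18 genes for CDK inhibitors and G2 brakes, 4 were called higher at 16 to 26 min than at 0 min (1.8% of all genes), 7 at 30 min than at 0 min (5.14%) and 3 at 30 min than at 16 to 26 min (2.31%). Over the list, the mean FPKM at 30 min was a median of 101% of that at 16 to 26 min, and 9 of the 18 log2 fold changes were above 0 and 9 below. Pkmyt1 and Wee1, kinases that inhibit Cdk1, were among the first, with 1.98 ± 0.23 log2 (adjusted p = 3.2e-06) and 1.16 ± 0.12 log2 (adjusted p = 7.6e-07), and at 28 min Wee1 was at 12.4 to 13.2 FPKM, inside its earlier range. Pkmyt1 was at 4.31 to 5.58 FPKM at 30 min, with -0.57 ± 0.23 log2 (adjusted p = 0.048) against 16 to 26 min, under the fold required. Gadd45g, a stress protein that can inhibit Cdk1, was at 24.9 to 45.9 FPKM at 28 min, with -0.91 ± 0.20 log2 (adjusted p = 0.0012) against 16 to 26 min, also under that fold. Cdkn1a, the inhibitor p21 and a p53 target, was at 7.32 to 8.93 FPKM at 0 min, 4.92 to 28.2 FPKM at 16 to 26 min, 40.8 to 50.3 FPKM at 28 min and 62.3 to 110 FPKM at 30 min. Its 28 and 30 min kidneys were above all others, with 1.58 ± 0.29 log2 (adjusted p = 0.00023) at 28 min and 2.49 ± 0.29 log2 (adjusted p = 5.5e-07) at 30 min against 16 to 26 min. Sfn, 14-3-3 sigma, which keeps Cdk1 out of the nucleus, was at 4.75 to 7.41 FPKM at 0 min and 73.3 to 91.6 FPKM at 30 min (3.48 ± 0.37 log2 (adjusted p = 1.4e-07)).

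Other cell types and injury markers moved with the ischemia times too. The 6 proximal tubule markers summed to 1904 to 3397 FPKM over 16 to 26 min, 1122 to 1288 FPKM at 28 min and 714 to 794 FPKM at 30 min. The 4 markers of injured tubule (Havcr1, Lcn2, Krt20 and Sox9) rose from 12.4 to 86.9 FPKM at 0 min to 68.9 to 1210 FPKM at 16 to 26 min and 2508 to 4911 FPKM at 30 min. The 5 macrophage and monocyte markers were at 21.2 to 25.5 FPKM at 0 min and 25.0 to 47.4 FPKM at 16 to 26 min, and the 4 fibroblast and pericyte markers at 20.7 to 27.3 and 79.7 to 199 FPKM. At 28 and 30 min the macrophage and monocyte markers were at 30.9 to 35.2 and 35.0 to 41.1 FPKM, and the fibroblast and pericyte markers at 93.9 to 137 and 78.6 to 263 FPKM. The 5 T and NK cell markers summed to 1.54 to 5.37 FPKM at 0 min, 0.990 to 3.65 FPKM at 16 to 26 min, 0.620 to 0.910 FPKM at 28 min and 0.450 to 0.630 FPKM at 30 min. The 4 B and plasma cell markers were at 0.430 to 0.920, 0.410 to 1.26, 0.0600 to 0.660 and 0.260 to 0.770 FPKM at the same times. The 4 neutrophil markers were at 2.24 to 7.49 FPKM at 0 min, 1.53 to 7.46 FPKM at 16 to 26 min, 9.22 to 13.6 FPKM at 28 min and 13.7 to 22.2 FPKM at 30 min. The part of these cell types in the levels of the mitotic genes was not tested.

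In GENCODE, exons of 12 of the 57 genes overlap those of a coding gene on the opposite strand, among them Ccna2, Cdc20, Ube2c, Cenpk and Kif20a. Those of Foxm1 overlap coding genes on the same strand. Whether the counting used strand is not given in the sources used here, so reads of these pairs may not be separable.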

How the data were processed

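RNA-Seq was done on 27 left kidneys, 3 at each of 9 ischemia times, after 24 h of reperfusion. The authors deposited 1 FPKM value per gene and kidney for 19392 genes. Their processing notes name Bowtie2, RSEM, DESeq2 and the build GRCm38.p6, and the versions, the annotation and the use of strand are not given in the sources used here. The depth per kidney is unknown, which limits the precision of low values.

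Genes above 0 FPKM in at least 3 kidneys were kept (18188, all 57 mitosis and G2/M genes among them). FPKM + 1 was taken to log2 and quantile normalized, and 1 mean per time was fitted to all 27 kidneys with limma 3.58.1 (R 4.3.3), with Benjamini-Hochberg adjusted p over all genes. A gene was called at a log2 fold change beyond 1 and an adjusted p under 0.05. The added 1 FPKM understates changes of low genes. The script was tested on simulated data. The labels number the kidneys as replicates, and the study describes taking the left kidney of each mouse. On that reading each kidney came from another mouse, and p-values measure the spread between mice. Named genes were 10 set by role, those with the 3 largest and 3 smallest calls at 16 min and 30 min against 0 min and at 30 min against 16 to 26 min, and those never called. Of the other lists, up to 3 genes with the largest differences were named. The genes of each further list, and members given for their values at 28 min, were named for the values they show. The members and lists were chosen with earlier results of these data known. Promoter sequences and gene positions came from RefSeq (GRCm38.p6), and exon overlaps from GENCODE. Alternatives were another pseudocount, other scalings and filters, fits of fewer kidneys, a trended prior, a replicate block and leaving out each kidney.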

Additional observations from a re-analysis of the deposited data

Results flagged for a closer look

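The effect of ischemia against the shared 0 min kidneys differed between ischemia times by a test of the difference itself. At 28 min 5 of the 57 mitosis and G2/M genes (Ccnb2, Cdca3, Ube2c, Cdc20 and Kif20a) were lower than in the mean of 16 to 26 min, and at 30 min 32 were, by limma with the thresholds given above. Groups of 3 kidneys are too small for a test of single outlying kidneys.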

How the results depend on the processing

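Counts are of the 57 genes called, without the share of all genes under each alternative, so they compare settings only. With 0.1 FPKM added in place of 1 FPKM, 13 were called at 30 min against 0 min, 20 at 30 min against 28 min and 11 at 28 min against the mean of 16 to 26 min. After rescaling to a constant sum (TPM) these counts were 6, 14 and 8. With a filter of 1 FPKM in 3 kidneys, 1 was called at 30 min against 0 min. In fits of only the compared groups, 0 were called at 16 min against 0 min, 2 at 28 min against 26 min and 0 at 30 min against 28 min, and the share of this drop due to fewer kidneys was not tested. Leaving out each kidney in turn gave 28 to 46 at 16 min against 0 min, 46 to 49 after 18 min, 30 to 47 after 20 min, 44 to 49 after 22 min, 37 to 46 after 24 min, 42 to 48 after 26 min, 25 to 35 after 28 min, 1 to 2 after 30 min and 43 to 46 for the mean of 16 to 26 min. It gave 0 to 5 at 28 min against 26 min, 1 to 15 at 30 min against 28 min, 5 to 6 at 28 min and 26 to 36 at 30 min against 16 to 26 min, and 0 at 26 min against 16 min. Single values changed sign 4 times, for Kif20a at 30 min against 0 min (-0.08 without 0 min replicate 2 and -0.13 without 30 min replicate 1, over a range of -0.13 to 0.11), Birc5 in the same comparison (-0.054 without 30 min replicate 1, up to 0.77 without 30 min replicate 3) and Kif20b at 16 to 26 min against 0 min (-0.012 without 0 min replicate 3, up to 0.24 without 0 min replicate 1), none of them called. The other alternatives left each count within 1.5 times. Equal replicate numbers did not mark paired kidneys (median correlation of deviations -0.042, 0.056 and 0.004 for numbers 1, 2 and 3, and 10 of 27 kidneys closest to their own number). With the replicate number as a block, 46 were called for the mean of 16 to 26 min, 32 at 30 min against it, and no count changed. FPKM without read counts leave the error of low genes unknown.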
